A study of Rattus norvegicus with 6 samples.

Results

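The synapse organisers of the neuromuscular junction are described here through 8 genes: Agrn, Lrp4, Musk, Dok7, Colq, Lamb2, Prkar1a and Utrn. They were chosen by name, and every probe set annotated with 1 of these symbols alone was kept, also where its signal was dim. This gave 10 probe sets of 15866 on the array, 3 for Prkar1a and 1 for each other gene, for 8 of 10411 named genes. RNA came from the tibialis anterior of 3 male Wistar rats, whose peroneal nerve had been cut and its end joined to the biceps femoris. The nerve stumps were rejoined after 4 weeks. The age is given as 8 weeks, read here as the age at the first operation, because the delay and the survival that followed exceed it. Survival was 8 weeks, read here as counted from the rejoining, which the labels do not state. The ipsilateral muscle (3 arrays) was compared with the contralateral muscle of the same animal (3 arrays), and the animals carry the numbers 4, 5 and 6. The contralateral muscle, which the titles mark only as Cont, came from the operated animals and is not a muscle of an unoperated rat.

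At the neuromuscular junction, the motor nerve terminal and a specialised patch of the muscle fibre are held together by a signalling route and by a shared basal lamina. The nerve releases agrin, which binds the receptor LRP4 on the fibre. LRP4 then activates the receptor tyrosine kinase MuSK, whose cytoplasmic partner DOK7 keeps it active, and acetylcholine receptors gather beneath the nerve. In the synaptic cleft the collagen tail COLQ anchors acetylcholinesterase and laminin beta 2 marks the synaptic basal lamina. Utrophin links the postsynaptic cytoskeleton to the membrane, and the protein kinase A subunit encoded by Prkar1a takes part in signalling inside the fibre. Agrin made by the nerve is transcribed in motor neurons of the spinal cord, so an array of muscle RNA measures the agrin transcript of cells within the muscle.

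None of the 8 genes differed detectably between the ipsilateral and the contralateral muscle. A difference is the log2(intensity + 15.8) of the ipsilateral minus that of the contralateral muscle, in which 15.8 is a pseudocount, and this scale understates differences of dim probe sets. In limma's paired fit over all 15866 probe sets, 0 of the 10 passed 0.05 after Benjamini-Hochberg adjustment and 0 passed it unadjusted. Over all probe sets these counts were 0 (0%) and 863 (5.44%). The members' adjusted p-values ran from 0.879 to 0.988. Their median difference was 0.085, against -0.013 over all probe sets. The 95% interval of the difference lay within 2-fold in either direction for all 10, which held for 94.1% of all probe sets, and within 1.5-fold for 7 of the 10, which held for 57.3% of all. These intervals are per probe set, with no adjustment for their number. With a pseudocount of 1, the same counts were 10 and 4, and without animal 5 or 6 the third Prkar1a probe set reached past 2-fold (up to 2.10-fold and 2.12-fold) and 2 and 1 members lay within 1.5-fold, against 3 without animal 4. Dok7 and Prkar1a were higher in the ipsilateral muscle of each animal, and the other 6 genes had mixed signs.

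The stretches below come from the promoter windows of RefSeq (build GRCr8), 250 bases before to 50 after the annotated start, which were matched for 5 of the 8 genes (Agrn, Musk, Dok7, Prkar1a and Utrn). Dok7 and Prkar1a are shown because they were the genes that were higher in each animal, and Musk because it encodes the receptor kinase of the route; positions refer to RefSeq and not to the array. Capitals mark each E-box (CANNTG, which reads the same on both strands), the site of myogenic and other helix-loop-helix factors.
Musk, chr5:77853486-77853785, plus strand: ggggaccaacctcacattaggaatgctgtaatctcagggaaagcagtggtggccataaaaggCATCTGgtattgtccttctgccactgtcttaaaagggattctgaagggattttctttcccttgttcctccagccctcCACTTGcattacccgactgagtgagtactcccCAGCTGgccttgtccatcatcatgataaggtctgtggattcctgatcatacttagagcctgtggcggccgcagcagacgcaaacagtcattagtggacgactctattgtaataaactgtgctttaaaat
Dok7, chr14:79923968-79924267, minus strand: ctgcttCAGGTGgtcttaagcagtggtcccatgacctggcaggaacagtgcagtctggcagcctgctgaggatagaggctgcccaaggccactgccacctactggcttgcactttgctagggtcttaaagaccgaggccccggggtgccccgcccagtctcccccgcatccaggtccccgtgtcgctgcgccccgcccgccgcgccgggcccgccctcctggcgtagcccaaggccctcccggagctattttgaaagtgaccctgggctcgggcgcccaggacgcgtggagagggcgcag
Prkar1a, chr10:95120287-95120586, plus strand: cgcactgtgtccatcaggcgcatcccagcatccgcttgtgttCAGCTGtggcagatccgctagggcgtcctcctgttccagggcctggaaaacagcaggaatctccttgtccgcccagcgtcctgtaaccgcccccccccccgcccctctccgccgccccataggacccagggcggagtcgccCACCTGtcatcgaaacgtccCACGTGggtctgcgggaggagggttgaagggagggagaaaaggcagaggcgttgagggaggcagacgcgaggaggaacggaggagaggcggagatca

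The windows of Musk and Prkar1a hold 3 E-boxes each, that of Dok7 holds 1, and those of Agrn and Utrn hold 0. Of 33469 RefSeq windows of this length, 72.1% hold at least 1. The N-box, a motif of synaptically expressed genes bound by ETS factors such as GABP, was searched as CCGGAA on either strand and was in 0 of the 5 members' windows, against 15.0% of all windows. For comparison it lies in 2 of the 5 windows of acetylcholine receptor subunits, those of Chrnd and Chrne. The windows of Chrna1, Chrnb1 and Chrng do not hold it. Stretches of Chrnd and Chrne are shown here with the N-box in capitals. In Chrnd it stands on the other strand, so that its letters read TTCCGG.
Chrnd, chr9:95310189-95310218, plus strand: atcagattgcgtTTCCGGcctcttctttcc
Chrne, chr10:55834191-55834220, minus strand: cctaaacctagtCCGGAActagcaccctcc
A match, or the lack of one, describes these letters in these windows only.

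All 6 arrays had been scaled to the same trimmed mean, and their median intensities ran from 60.2 to 66.6. All 6 muscle fibre markers (Acta1, Ckm, Des, Mb, Tnnt3 and Myh4) were above the dim threshold of 42.4, the 40th percentile, and their summed intensity was 24941 to 28571 in ipsilateral muscles, against 29323 to 34469.8 in contralateral ones, with a median log2 difference of -0.20, 0 genes higher and 2 lower in all 3 animals. Summed Schwann cell and nerve markers, 10 of 12 measured and 5 of them above that threshold, were at 997 to 1059 ipsilaterally and 849 to 949 contralaterally, whereas their median log2 difference was -0.11, with 2 genes higher and 4 lower in all 3 animals. Summed endothelial markers, 8 of 10 measured, were at 1062 to 1388 ipsilaterally and 984 to 992 contralaterally, with a median log2 difference of 0.18, 3 genes higher and 0 lower in all 3 animals. For these 3 lists the sums of the groups did not overlap, whereas the sums of smooth muscle, fibroblast, macrophage and adipocyte markers overlapped. In that order, the overlapping lists had median log2 differences of -0.15, 0.035, -0.15 and 0.33. Of their genes, 2, 2, 0 and 2 were higher and 2, 1, 3 and 1 lower in all 3 animals. Over all probe sets, 11.6% were higher and 13.8% lower in all 3 animals, and 9.62% were without overlap in either direction. No marker was at 0 on any array. In whole muscle, fewer cells of a type and less RNA per cell cannot be told apart. Both arrays of animal 4 had the lowest cre hybridisation spike (1476 ipsilaterally and 1117 contralaterally, against 2481 to 3605 on the others), and the ipsilateral array of animal 4 also had the most of the spermatid transcript Prm1 (617, against 39.5 to 248 on the others). For actin, the signal at the 3′ end over that at the middle of the transcript, a measure of RNA integrity, was 2.87 in ipsilateral 6 and 2.77 in contralateral 4, against 1.36 to 1.68 on the others. Differences with 1 animal left out are given beside some members, and as ranges for all members under the dependence on processing.

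**Figure D1:**
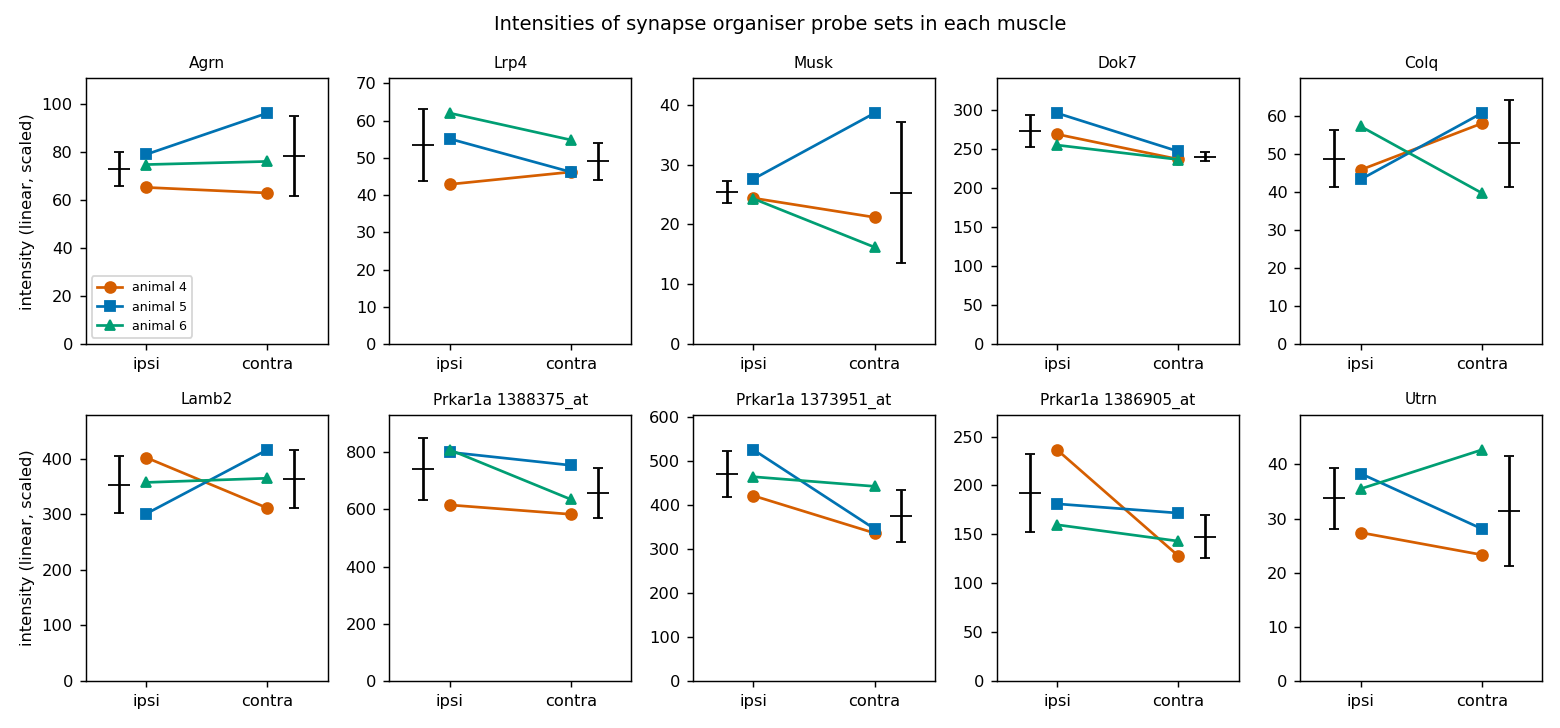
Intensity (linear, scaled by the authors, axis from 0) of each probe set in the ipsilateral and the contralateral muscle, with 1 line per animal and black marks for the mean ± SD of 3 arrays. Only in the Dok7 panel do all 3 ipsilateral values (255 to 296) lie above all 3 contralateral ones (237 to 247).

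Agrn encodes the heparan sulfate proteoglycan agrin. Its probe set (1370307_at) had intensities of 65.2, 78.9 and 74.7 in the ipsilateral muscles of animals 4, 5 and 6, against 62.9, 96.1 and 76.0 in the contralateral muscles. The groups overlapped, both the lowest and the highest value were contralateral, and the widest gap between the muscles of an animal was in animal 5. The means were 72.9 ± 7.02 ipsilaterally and 78.3 ± 16.7 contralaterally (SD, n = 3 each). Its difference was -0.073 (SE 0.16), with 0.042, -0.24 and -0.021 in animals 4, 5 and 6. The 95% interval reached from 0.723-fold to 1.25-fold. Without animal 5 the difference was 0.010, so its sign rested on that animal.

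Lrp4, the agrin receptor of the fibre, was measured by 1370932_at at 42.9, 55.1 and 62.0 in the ipsilateral muscles and at 46.2, 46.2 and 54.8 in the contralateral muscles. Animal 4 had the lowest ipsilateral value, below each contralateral one, while in animals 5 and 6 the ipsilateral value was the higher one. The means were 53.3 ± 9.67 ipsilaterally and 49.1 ± 4.97 contralaterally (SD, n = 3 each). The difference was 0.085 (SE 0.17), with an interval from 0.793-fold to 1.42-fold, and it was 0.17 without animal 4. The signal lay just above the threshold for dim probe sets, and the ipsilateral value of animal 4 (42.9) was at it.

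Musk encodes the receptor tyrosine kinase that LRP4 activates and is known as a gene that denervated muscle transcribes outside the junction too. Its probe set (1369388_at) was dim, at the 27.5th percentile of signal, with 24.4, 27.6 and 24.3 in the ipsilateral muscles, against 21.2, 38.6 and 16.2 in the contralateral muscles. The ipsilateral values lay close together, and the contralateral ones spread to either side of them. Mean intensities were 25.4 ± 1.88 ipsilaterally and 25.3 ± 11.8 contralaterally (SD, n = 3 each). The difference was 0.040 (SE 0.19), with 0.12, -0.33 and 0.33 in animals 4, 5 and 6. Its interval was from 0.744-fold to 1.42-fold. The pseudocount narrows it: with a pseudocount of 1 the difference was 0.094 and the interval was from 0.614-fold to 1.85-fold. Without animal 6 the difference was -0.10, without animal 4 it was -0.00019 and without animal 5 it was 0.22.

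Dok7 encodes the adaptor that binds MuSK inside the fibre and activates it. Probe set 1390696_at had 269.1, 296.2 and 255.2 in the ipsilateral muscles, against 237.1, 247.2 and 236.7 in the contralateral muscles. Every ipsilateral value was above every contralateral one, which held for 4.36% of all probe sets; 5.26% were without overlap in the other direction and 9.62% in either. No other member probe set was without overlap. Mean intensities were 273.5 ± 20.9 ipsilaterally and 240.3 ± 5.95 contralaterally (SD, n = 3 each). The difference was 0.17 (SE 0.12), with 0.17, 0.25 and 0.10 in animals 4, 5 and 6, and limma's adjusted p was 0.895. Its differences varied less between animals than those of any other member probe set (SD 0.072, against 0.14 to 0.41). The interval was from 0.924-fold to 1.38-fold, so a larger increase than 1.38-fold lay outside it. An exact sign-flip test over 3 animals cannot give a two-sided p below 0.25.

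**Figure D2:**
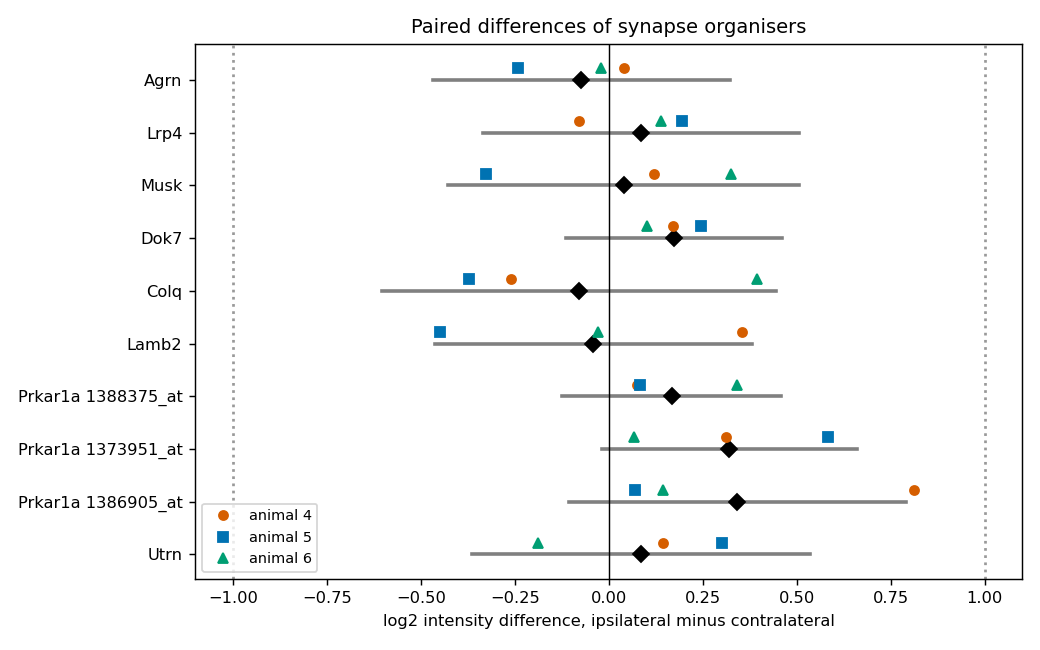
Log2 difference of ipsilateral minus contralateral intensity for each probe set, with the limma estimate (diamond), its 95% interval (grey bar) and the value of each animal (coloured symbols); dotted lines mark 2-fold. All 10 bars cross 0 and none reaches a dotted line.

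Colq, the collagen-like tail that fixes acetylcholinesterase in the cleft, was measured by 1368475_at. It had 45.8, 43.3 and 57.2 in the ipsilateral muscles, against 58.0, 60.7 and 39.7 in the contralateral muscles. Animals 4 and 5 were lower on the ipsilateral side and animal 6 was higher, and the ranges of the groups nearly coincided. The means were 48.8 ± 7.41 ipsilaterally and 52.8 ± 11.4 contralaterally (SD, n = 3 each). The difference was -0.079 with the largest standard error of the members (0.22). It consisted of -0.26, -0.37 and 0.40 in animals 4, 5 and 6, and its interval from 0.658-fold to 1.36-fold was the lowest-reaching one. Leaving out animal 6 gave -0.32, whereas leaving out animal 4 or 5 gave values above 0 (0.012 and 0.067).

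Lamb2 encodes laminin beta 2, a laminin chain of the synaptic cleft that vessel walls and nerve sheaths also hold. With 1367880_at it had 402.6, 301.1 and 357.7 in the ipsilateral muscles, against 311.6, 416.5 and 365.2 in the contralateral muscles. Animals 4 and 5 went in opposite directions by similar amounts, and in animal 6 both muscles were nearly equal. The means were 353.8 ± 50.9 ipsilaterally and 364.4 ± 52.5 contralaterally (SD, n = 3 each). Its difference was -0.041 (SE 0.17), with 0.35, -0.45 and -0.029 in animals 4, 5 and 6. The interval was from 0.726-fold to 1.30-fold. Without animal 4 it was -0.24, and without animal 5 it was 0.16. The part of the nerve and endothelial markers in the values of Lamb2 and Agrn was not tested.

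Utrn encodes utrophin, the relative of dystrophin that is concentrated at the postsynaptic membrane. Its probe set (1387716_at) was dim, at the 33.4th percentile, with 27.4, 38.3 and 35.5 in the ipsilateral muscles, against 23.3, 28.1 and 42.7 in the contralateral muscles. Animals 4 and 5 were higher on the ipsilateral side and animal 6 was lower there, and both the lowest and the highest value were contralateral. The means were 33.7 ± 5.66 ipsilaterally and 31.4 ± 10.1 contralaterally (SD, n = 3 each). A difference of 0.085 (SE 0.18) resulted, with 0.14, 0.30 and -0.19 in animals 4, 5 and 6. Its interval was from 0.777-fold to 1.45-fold, or from 0.679-fold to 1.77-fold with a pseudocount of 1. Without animal 5 the difference was -0.023.

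Prkar1a encodes the type I alpha regulatory subunit of protein kinase A, a kinase that in mouse muscle is linked to the recycling of acetylcholine receptors. Its 3 probe sets share the same RNA and do not count as replicates. The brightest (1388375_at) had 615.2, 799.7 and 808.1 in the ipsilateral muscles, against 582.7, 754.0 and 634.7 in the contralateral muscles. Its groups overlapped, since animal 4 was low in both muscles. The difference was 0.17 (SE 0.12), with 0.076, 0.083 and 0.34 in animals 4, 5 and 6, and an interval from 0.917-fold to 1.37-fold.

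The other probe sets of Prkar1a had larger differences, each carried by another animal. The second (1373951_at) had 420.6, 524.9 and 463.6 ipsilaterally, against 335.8, 345.4 and 441.9 contralaterally, and only contralateral 6 lay within the ipsilateral range. Its difference of 0.32 (SE 0.14) was 0.31, 0.58 and 0.067 in animals 4, 5 and 6. Limma's adjusted p was 0.879 (unadjusted 0.060), the lowest among the members. The adjustment gave this same value to many probe sets, the 863 with an unadjusted p under 0.05 among them, so it does not rank this probe set. The third (1386905_at) had 236.4, 181.1 and 159.7 ipsilaterally, against 128.0, 171.7 and 143.0 contralaterally. Ipsilateral 4 was the highest and contralateral 4 the lowest of its 6 values. It differed by 0.34 (SE 0.18), with 0.81, 0.071 and 0.14 in animals 4, 5 and 6, and by 0.11 without animal 4. Contralateral 4 is 1 of the 2 arrays with a high actin ratio, and the part of that ratio was not tested.

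All 9 within-animal differences of the 3 Prkar1a probe sets were above 0. Averaged over the probe sets, the difference was 0.40, 0.25 and 0.18 in animals 4, 5 and 6, a mean of 0.28 ± 0.11 (SD, n = 3 animals; two-sided exact sign-flip p = 0.25, the smallest that 3 animals can give). The intervals of the probe sets ended at 1.37-fold, 1.58-fold and 1.73-fold, so larger increases lay outside them. Across the 6 arrays the log2 values of the probe sets correlated with each other at only 0.16 to 0.52, as a description of arrays that share animals.

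Counted by probe set, 4 of the 10 were higher in all 3 animals, against 11.6% of all probe sets, and 0 were lower in all 3, against 13.8%. Since 3 of the 4 are of Prkar1a, they stand for 2 genes. Animal 4 alone had the opposite sign in Agrn, Lrp4 and Lamb2, animal 5 alone in Musk, and animal 6 alone in Colq and Utrn. The members' median difference was 0.13, 0.077 and 0.12 in animals 4, 5 and 6, against 0.0010, -0.049 and 0.012 over all probe sets.

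**Figure D3:**
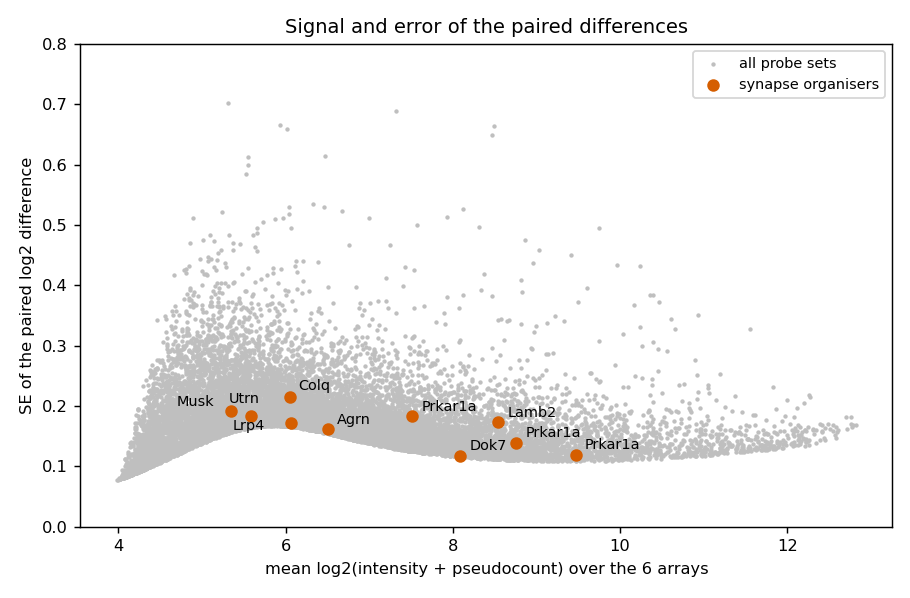
Standard error of the paired log2 difference (vertical axis) against the mean log2 signal over the 6 arrays (horizontal axis), with all probe sets in grey and the 10 member probe sets in orange. The members lie between SE 0.12 and 0.22, where the median of all probe sets is 0.17.

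The standard errors of the members, 0.12 to 0.22 with a median of 0.17, were close to those of all probe sets (median 0.17). Dok7 and the brightest Prkar1a probe set were measured with the smallest error, and Colq with the largest. Across the 6 arrays the ratio of the highest to the lowest intensity was 1.25 for Dok7, 1.38 for Lamb2, 1.45 for Lrp4, 1.83 for Utrn and 2.38 for Musk. The members did not follow 1 common pattern. Among the 28 pairs of genes, taken by their brightest probe sets, Pearson's r of log2 values over the 6 arrays had a median of 0.19. It ran from -0.67 for Colq with Utrn to 0.77 for Lrp4 with Utrn, and it was 0.68 for Agrn with Musk.

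Genes elsewhere on the array that followed Musk most closely over the 6 arrays were Rbfox3 (r = 0.99), Nras (0.98), Tmie (0.98) and Inmt (0.98). For Dok7 they were Rnh1 (0.99), Snrnp40 (0.98), Piezo1 (0.98) and Cdv3 (0.97). They were picked as the highest of 7117 or more brightest probe sets above the dim threshold, of which 67 for Musk and 42 for Dok7 exceeded 0.9. Such r values describe 6 arrays of 3 animals.

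Other genes of the junction were taken from 8 lists, with the brightest probe set of each gene. Of 68 listed genes 54 were measured, 0 passed at an adjusted p under 0.05, and 6 were higher and 0 lower at an unadjusted p under 0.05 in limma, where 2.84% of all probe sets were higher and 2.6% lower. Their median difference was 0.15, and that of the 8 organisers by their brightest probe sets was 0.062. The 5 measured receptor subunits had a median of 0.28, and 0 of them had 1 sign in all 3 animals. The differences were 0.37 (SE 0.26) for Chrna1, 0.29 (SE 0.17) for Chrnb1 and 0.19 (SE 0.24) for Chrnd. Chrne, at 0.28 (SE 0.24), and Chrng, at -0.023 (SE 0.14), were dim, and the median is the value of Chrne. Chrng had means of 9.2 ipsilaterally and 9.73 contralaterally, below the pseudocount, which draws its difference and its SE towards 0.

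**Figure D4:**
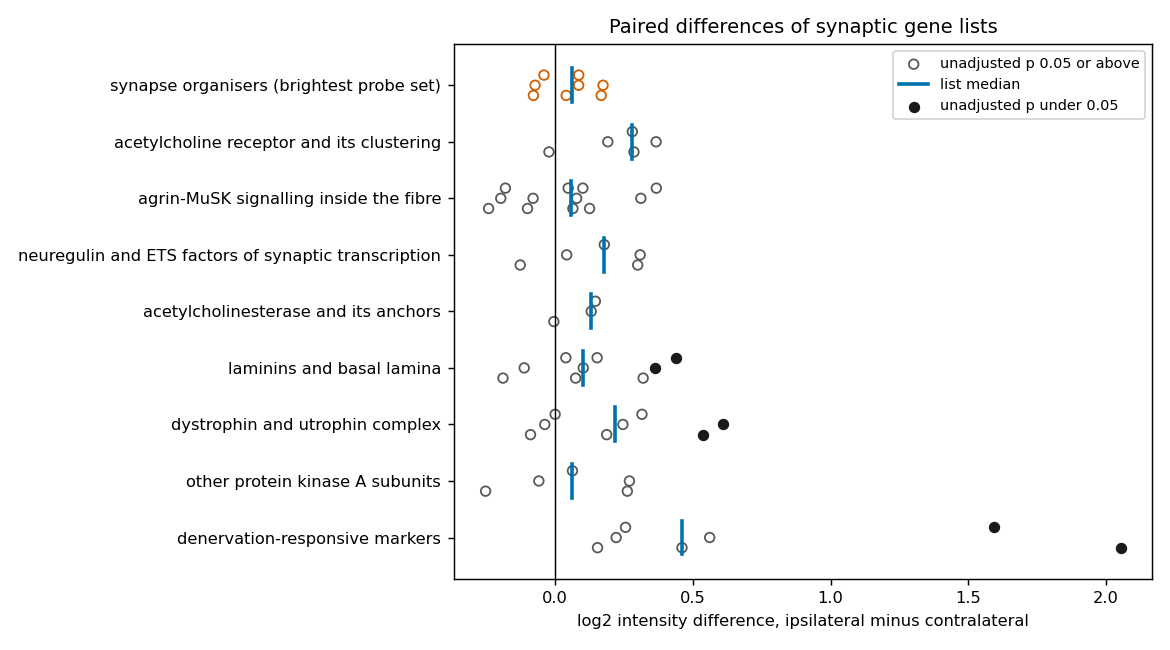
Log2 difference of ipsilateral minus contralateral intensity for the 8 synapse organisers (orange) and for the genes of 8 lists, 1 circle per gene, with filled circles for an unadjusted p under 0.05 and blue lines for medians. The organisers lie between -0.079 and 0.17, and the filled circles are Nid1 and Col4a2, Dtna and Dtnb, and Ankrd1 and Sln.

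Signalling partners of MuSK inside the fibre, 12 measured genes, had a median of 0.056, with 2 higher and 3 lower in all 3 animals. The lowest of them was the phosphatase gene Ptpn11, whose product SHP2 acts on this route, at -0.24 (SE 0.12). A dimmer probe set of Ptpn11, below the pseudocount on each array, gave 0.21 (SE 0.16). The highest of the list was Macf1, at 0.37 (SE 0.18). Neuregulin and ETS genes, 5 measured and 4 of them dim, had a median of 0.18 and 0 with 1 sign in all 3 animals. That median is the value of Erbb2, whose means of 11.7 ipsilaterally and 9.37 contralaterally were below the pseudocount. Of the list of acetylcholinesterase and its anchors, 3 genes were measured (Bche, Hspg2 and Dag1), whereas Ache and Prima1 were not. The list median of 0.13 was the value of Bche, which was dim. The basement membrane heparan sulfate proteoglycan Hspg2, to which COLQ attaches, was at -0.0051 (SE 0.12), and the agrin-binding dystroglycan Dag1 at 0.15 (SE 0.13), with 1.8e-05 (SE 0.12) and -0.18 (SE 0.31) for its 2 dimmer probe sets.

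Basal lamina genes beside Lamb2, 9 measured, had a median of 0.10, and 3 were higher and 0 lower in all 3 animals. The linker nidogen 1 (Nid1) had intensities of 669.2, 725.8 and 1111 in the ipsilateral muscles, against 508.1, 543.4 and 769.8 in the contralateral muscles. In each animal the ipsilateral value was higher, and the groups overlapped only through contralateral 6. Its difference was 0.44 (SE 0.11; limma adjusted p = 0.879), but a dimmer probe set of Nid1 gave 0.048 (SE 0.16). The collagen IV chain Col4a2 differed by 0.36 (SE 0.14) and its partner Col4a1 by 0.15 (SE 0.11), both above 0 in all 3 animals; the other probe set of Col4a1 gave 0.12 (SE 0.13), with -0.097 in animal 4.

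Partners of utrophin and dystrophin, 8 measured, had a median of 0.22, with 2 higher and 0 lower in all 3 animals. The dystrobrevins are cytoplasmic members of this complex, and alpha-dystrobrevin is needed for stable receptor clusters in mice. Dtna had 218.0, 297.1 and 189.6 in the ipsilateral muscles, against 174.1, 192.9 and 91.4 in the contralateral muscles. The lowest ipsilateral value lay between the contralateral ones, and each animal was higher on the ipsilateral side. The difference was 0.61 (SE 0.16; limma adjusted p = 0.879), with 0.30, 0.58 and 0.94 in animals 4, 5 and 6. Dtnb, which was dim, had 33.9, 25.5 and 32.1 ipsilaterally, against 15.0, 11.0 and 23.3 contralaterally, with no overlap and a difference of 0.54 (SE 0.17; limma adjusted p = 0.879). The only probe set of the dystrophin gene Dmd was near the bottom of the scale in both muscles, below the pseudocount. It had 3.83 ± 0.503 ipsilaterally and 5.13 ± 1.63 contralaterally (SD, n = 3 each), while 6 of the 8 genes were above the dim threshold. Whether this probe set detects the dystrophin transcript of muscle was not tested, so its values do not give the level of dystrophin.

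The 5 other protein kinase A subunits had a median of 0.062, or of -0.060 with the mean over a gene's probe sets. The brightest probe set of the type II regulatory subunit Prkar2a was lower in all 3 animals, with 889.2, 727.4 and 682.3 ipsilaterally, against 979.4, 957.2 and 804.7 contralaterally, and a difference of -0.25 (SE 0.12; limma adjusted p = 0.879). Its 2 dimmer probe sets gave -0.30 (SE 0.34) and 0.061 (SE 0.22), each with mixed signs. The catalytic subunits Prkaca and Prkacb were at 0.26 (SE 0.15) and 0.062 (SE 0.11), and a dimmer probe set of Prkacb gave -0.24 (SE 0.21). Among 7 measured genes known to respond to denervation the median was 0.46, and 3 were higher and 0 lower in all 3 animals. The stretch-responsive Ankrd1 differed by 2.05 (SE 0.50) and the calcium pump regulator Sln by 1.59 (SE 0.50), each with its smallest value in animal 4. Limma's adjusted p was 0.879 for both. Gadd45a, also higher in all 3 animals, was at 0.22 (SE 0.15). Myog (0.56, SE 0.30), Runx1 (0.46, SE 0.22), Ncam1 (0.26, SE 0.24) and Hdac4 (0.15, SE 0.20) had mixed signs. Musk, which denervation is also known to raise, was at 0.040 in the same arrays. Its probe set was dim, and with a pseudocount of 1 its interval reached from 0.614-fold to 1.85-fold.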

How the data were processed

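Total RNA of 6 muscles was measured on 6 arrays. The authors deposited linear intensities, which they had scaled so that each array's mean, with 2% trimmed at either end, is about 150; this was read from the values. Which software did so is not stated in the labels. The 57 control probe sets were left out, which left 15866, and 2 member probe sets lay below the 40th percentile of signal. Gene names came from a platform annotation that can be old (1 symbol for 12783 of these probe sets, 12748 of which were found in the RefSeq gene table of GRCr8; the 312 with several symbols stayed unnamed).

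Intensities were taken as log2 after adding 15.8, their 20th percentile, with no further normalization, since the array medians lay within 0.115 on the log2 scale. Samples were grouped by their titles. limma 3.58.1 in R 4.3.3 (lmFit, eBayes with an intensity trend) was fitted over all 15866 probe sets with the animal as a block, per the labels' statement that the muscles of each animal were compared. There were 2 residual degrees of freedom and 4.09 from the prior, and p-values were adjusted by Benjamini-Hochberg. The pairing comes from the design; the muscles of 1 animal deviated from their group means with correlations of -0.021, 0.036 and 0.089 in animals 4, 5 and 6. The number of arrays limits the precision. Plots used matplotlib 3.10.9 (Python 3.11.15).

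The members and lists were chosen with earlier results of these data known. Named were all members, the receptor subunits, and up to 3 genes of each list with an unadjusted p under 0.05 and 1 sign in all 3 animals. Ptpn11, Macf1, Erbb2, Bche, Hspg2, Dag1, Col4a1, Dmd, Prkar2a, Prkaca and Prkacb were named after their values were seen. So were Myog, Runx1, Ncam1, Gadd45a and Hdac4. The alternatives changed the normalization, pseudocount, dim filter, variance prior, animal block or probe set per gene, or left out an animal.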

Additional observations from a re-analysis of the deposited data

How the results depend on the processing

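Of 108 recomputed differences of the member probe sets, 101 kept their sign, 7 changed it and 0 reached an adjusted p under 0.05 in limma. The lowest adjusted p was 0.511 with an animal left out and 0.776 otherwise. Part of the 101 could not change sign. Changing the animal block, the dim filter, the intensity trend or the variance prior leaves each difference as it was and alters only its error. All 7 changes of sign came from leaving out an animal, with ranges of -0.13 to 0.010 for Agrn, -0.10 to 0.22 for Musk, -0.32 to 0.067 for Colq, -0.24 to 0.16 for Lamb2 and -0.023 to 0.22 for Utrn. Lrp4 (0.031 to 0.17), Dok7 (0.14 to 0.21) and the Prkar1a probe sets (0.080 to 0.21, 0.19 to 0.45 and 0.11 to 0.48) kept theirs. The count of member probe sets with an unadjusted p under 0.05 was 0 in every alternative. Without the pairing by animal (no replicate block) Dok7 stayed at 0.17 by construction, with SE 0.11 against 0.12, and no call on a member changed. Over the whole array the count at an adjusted p under 0.05 was 0 to 17 with an animal left out, the 17 being those without animal 4, a fit with fewer samples. It was 0 in the other alternatives, and the count at an unadjusted p under 0.05 was 1821 without animal 4 and 538 without animal 5, against 863. Tested alone, the 9519 brighter probe sets had a lowest adjusted p of 0.20, and Musk and Utrn could not be tested there. The median of the acetylcholinesterase list was -0.0051 with the mean over a gene's probe sets, against 0.13; the other 7 list medians moved by less than their spread between animals, though that of the other protein kinase A subunits changed sign (-0.060, against 0.062). For the dim probe sets of Musk and Utrn, standard errors were 0.33 and 0.29 with a pseudocount of 1, against 0.19 and 0.18.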
